A study of Mus musculus with 32 samples.

Results

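Immune checkpoint ligands are the molecules with which a cell holds back T cells, NK cells or macrophages, and their mRNA was followed here in YUMM3.3, a Braf mutant mouse melanoma cell line. The members were 8 genes, Cd274, Pdcd1lg2, Cd276, Lgals9, Pvr, Nectin2, Cd47 and Tnfrsf14, chosen as the rows of the count table whose Ensembl identifier carries one of these symbols. The table had 12451 genes and listed 7 of the 8, and the expression of Tnfrsf14 was not analysed here. Cells in multi-well plates were left untreated or received IFN-γ at 20 ng/ml, Activin-A at 40 ng/ml (the dose in the labels, while some legends of the study name a higher one) or both factors, and mRNA was collected after 4 hrs or 12 hrs, with 4 wells in each of the 8 groups and 32 wells in all. The mRNA was measured by BRB-seq, in which each well's cDNA gets its own barcode before the wells are pooled and transcripts are counted from their 3′ ends. All wells were of the same cell line, with no other line, animal or immune cell in culture, so that p-values measure only the spread between wells.

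Cd274 (PD-L1) and Pdcd1lg2 (PD-L2) are ligands of PD-1, the inhibitory receptor of activated T cells. Cd276 (B7-H3) is a related B7 family protein, and Lgals9 (galectin-9) is a secreted lectin that binds TIM-3. Pvr (CD155) and Nectin2 (CD112) bind the inhibitory receptor TIGIT and the activating receptor CD226 on T and NK cells, and Cd47 binds SIRPα on macrophages, where it signals against phagocytosis. IFN-γ, the main cytokine of activated T and NK cells, signals through JAK1 and JAK2 and turns on the transcription factor IRF1, and PD-L1 is a known target of this route in tumor cells. Activin-A is a TGF-β family member that signals through SMAD2 and SMAD3. The design asks which of these ligands respond to either factor, and if Activin-A alters the response to IFN-γ.

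Promoter windows from RefSeq (build GRCm38.p6), reaching from 250 bases before a transcript's start to 50 bases after it, are shown for the 2 members that IFN-γ raised, Cd274 and Cd47, for Pdcd1lg2, the other PD-1 ligand and a neighbor of Cd274 on chromosome 19, and for Lgals9. The windows lie at chr19:29367188-29367487 (Cd274, + strand), chr16:49855404-49855703 (Cd47, + strand), chr19:29410669-29410968 (Pdcd1lg2, + strand) and chr11:78984875-78985174 (Lgals9, − strand). Each is written 5′ to 3′ on the gene's strand, and capitals mark matches to the motifs described next.
Cd274: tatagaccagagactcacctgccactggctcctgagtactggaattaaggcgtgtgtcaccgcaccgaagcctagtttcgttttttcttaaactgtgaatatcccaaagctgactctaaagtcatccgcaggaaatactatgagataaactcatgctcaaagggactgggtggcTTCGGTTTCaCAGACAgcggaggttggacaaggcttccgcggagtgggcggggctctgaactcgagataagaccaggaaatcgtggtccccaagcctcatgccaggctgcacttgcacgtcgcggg
Cd47: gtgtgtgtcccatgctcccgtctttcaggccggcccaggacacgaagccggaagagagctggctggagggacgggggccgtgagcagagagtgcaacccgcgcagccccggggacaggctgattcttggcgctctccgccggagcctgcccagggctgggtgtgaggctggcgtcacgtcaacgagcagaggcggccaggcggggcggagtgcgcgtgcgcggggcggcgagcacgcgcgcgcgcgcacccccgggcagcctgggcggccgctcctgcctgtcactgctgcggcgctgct
Pdcd1lg2: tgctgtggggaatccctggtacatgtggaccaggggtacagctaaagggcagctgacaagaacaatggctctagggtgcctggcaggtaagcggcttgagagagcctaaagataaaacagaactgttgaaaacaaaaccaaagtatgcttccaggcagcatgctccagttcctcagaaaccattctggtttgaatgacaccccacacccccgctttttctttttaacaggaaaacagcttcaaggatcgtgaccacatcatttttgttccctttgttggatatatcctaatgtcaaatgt
Lgals9: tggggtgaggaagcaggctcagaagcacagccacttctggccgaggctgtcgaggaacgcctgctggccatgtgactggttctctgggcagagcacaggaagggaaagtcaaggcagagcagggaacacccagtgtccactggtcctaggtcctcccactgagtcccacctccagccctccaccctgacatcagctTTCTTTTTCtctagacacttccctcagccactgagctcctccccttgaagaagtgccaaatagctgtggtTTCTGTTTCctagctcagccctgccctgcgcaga

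Letter patterns of 3 kinds were searched on both strands. The IFN-γ activated site GAS was written TTCNNNGAA, the core of an IRF site GAAANNGAA (TTCNNTTTC on the other strand), and the SMAD element CAGACA. Of the 8 members, 7 had a window in the table, all but Pvr. The window of Cd274 held 1 IRF core match, TTCGGTTTC, with its first base 76 bases before the start, and 1 SMAD match beginning 66 bases before it. Lgals9 had 2 IRF core matches, TTCTTTTTC at 54 bases before the start and TTCTGTTTC at base 17 of the transcript, and Nectin2 had 1 SMAD match at 57 bases before the start. Tnfrsf14 had 1 IRF core match, TTCATTTTC, at 63 bases before the start and 1 SMAD match at 240 bases before it. No match to any of the 3 patterns was found in the windows of Cd47, Pdcd1lg2 and Cd276, and no member had the GAS pattern in its window. None of these matches overlapped another. Among all 32851 windows of the table, 8.30% held the GAS pattern, 8.56% the IRF core and 21% the SMAD element, so that single matches are common, and they are given as a description.

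Totals ranged from 654539 to 1455074 counts per well (median 988019.5). Scaled by these totals alone, without TMM, a floor of 3 counts corresponded to 2.06 to 4.58 CPM (library-scaled counts). Levels below are CPM normalized by TMM, with the 4 wells of a group in order of their replicate number. Errors are SD (n = 4). Melanocyte lineage markers were present in every well, with 8 of 9 listed and a summed level of 431 to 556 CPM. The list of immune cell markers and checkpoint receptors summed to 32.3 to 63.2 CPM with 10 of 19 listed, mostly from Sirpa at a mean of 26.6 CPM, and among the others Cd68 reached 13 counts in a well, Itgax 10, Btla 8, Ptprc 5 and the other 5, Cd8a included, at most 3, and the ranges of the 8 groups overlapped for both lists. Among Activin-A wells at 4 hrs, replicate 1 stood apart from the other 3, with a chi-square per gene of 2.45 to 2.89 against them. No other pair of replicates exceeded 1.54. Without it 0 of 7 members were called for Activin-A at 4 hrs, as with it, and the log2 fold changes of Pvr, Lgals9 and Lgals3 are given with and without it.

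IFN-γ raised Cd274 and Cd47 at both times, while no change passed the test for the other members. At 4 hrs all 7 listed members passed the filter on low counts and 2 of 7 rose, against 5.06% of the 9137 genes tested being called in either direction (462 genes, 392 higher and 70 lower). At 12 hrs 2 of 5 rose, against 9.25% of the 8971 genes tested (830 genes), and Pdcd1lg2 and Cd276 did not pass the filter. Called means an adjusted p under 0.05 in edgeR's quasi-likelihood test, with adjustment by Benjamini-Hochberg over all genes of the fit. The median log2 fold change was 0.12 over the 7 members and -0.01 over all genes at 4 hrs, and 0.22 over the 5 members and -0.01 over all genes at 12 hrs. Cd274 passed the filter through the wells given IFN-γ, since wells without it had at most 9 counts at 4 hrs and 6 at 12 hrs, and these shares are therefore no support for a response of the ligands as a group. In bulk mRNA, fewer cells with a transcript and less transcript per cell cannot be told apart.

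**Figure D1:**
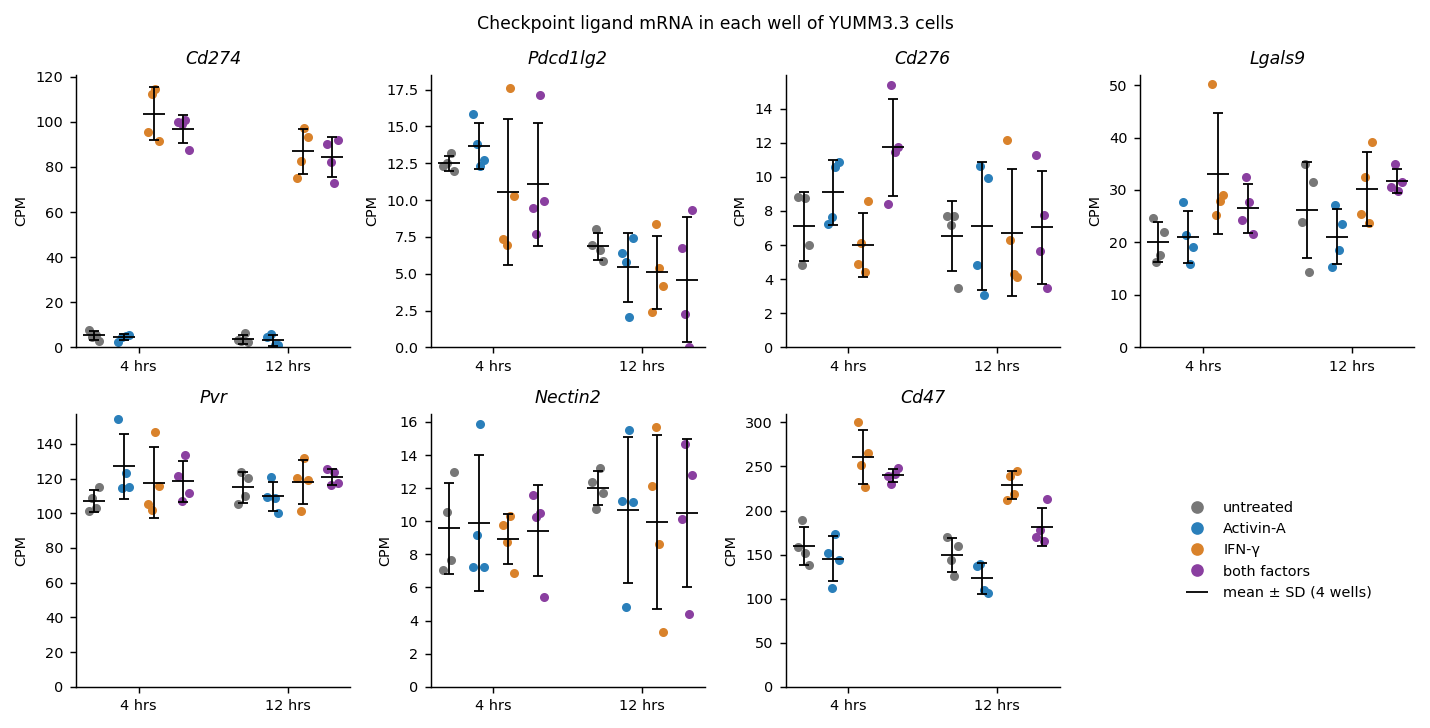
Level of each listed checkpoint ligand in CPM (linear axis from 0, 1 panel per gene) in the 4 wells of each group at 4 hrs and 12 hrs, with lines for mean ± SD. Cd274 separates wells with and without IFN-γ completely, from at most 7.91 CPM without it to at least 73.0 CPM with it, whereas the treatments of Pvr and Nectin2 overlap within each time.

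Cd274 (ENSMUSG00000016496) was close to the floor without IFN-γ. Untreated wells had 7.91, 4.81, 5.49 and 3.0 CPM at 4 hrs and 3.09, 2.69, 6.61 and 2.34 CPM at 12 hrs, from 2 to 9 counts each. With IFN-γ, the level was 95.5, 112, 115 and 91.7 CPM at 4 hrs and 75.2, 82.6, 97.2 and 93.1 CPM at 12 hrs. Every well given IFN-γ was thus above every untreated well, with a wide gap. The fitted rise was 18.9-fold at 4 hrs (95% interval 14.1 to 25.3, log2 fold change 4.24, SE 0.21, adjusted p = 8.40e-25 in edgeR's quasi-likelihood test) and 23.5-fold at 12 hrs (16.8 to 32.9, log2 fold change 4.56, SE 0.24, adjusted p = 7.75e-32). The difference between the effects at 12 hrs and 4 hrs was 0.33 on the log2 scale with an interval from -0.59 to 1.25, and it did not pass the test (adjusted p = 0.939).

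No effect of Activin-A on Cd274 passed the test, alone or with IFN-γ. Wells with both factors had 100.1, 99.1, 101 and 87.5 CPM at 4 hrs and 90.4, 82.3, 73.0 and 92.1 CPM at 12 hrs, and they overlapped the wells with IFN-γ alone at both times. The fitted log2 difference of both factors from IFN-γ was -0.09 at 4 hrs (95% interval -0.32 to 0.14) and -0.05 at 12 hrs (-0.31 to 0.20). In edgeR's test the adjusted p was 0.888 and 0.949, and the lower bounds of the intervals corresponded to 0.799-fold and 0.806-fold. Activin-A alone gave 2.64, 4.59, 5.29 and 5.44 CPM at 4 hrs and 4.82, 5.80, 1.03 and 1.24 CPM at 12 hrs. These levels overlapped untreated wells, and at 1 to 6 counts per well a change could not be resolved (log2 intervals from -1.14 to 0.53 and from -1.09 to 0.97). Ordered by group mean, Cd274 ran from IFN-γ at 4 hrs (104 CPM) through both factors at 4 hrs (96.9), IFN-γ at 12 hrs (87.0) and both factors at 12 hrs (84.4) to untreated at 4 hrs (5.30), Activin-A at 4 hrs (4.49), untreated at 12 hrs (3.68) and Activin-A at 12 hrs (3.22). Neighbors in this order overlapped, except for the step between the groups with and without IFN-γ.

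Pdcd1lg2 (ENSMUSG00000016498), which encodes the other ligand of PD-1, did not follow Cd274. Its level was 12.3, 12.5, 13.2 and 12.0 CPM in untreated wells at 4 hrs and 7.35, 6.97, 17.6 and 10.3 CPM with IFN-γ. The IFN-γ wells lay on both sides of the untreated wells, and the fitted log2 fold change was -0.30 with an interval from -0.94 to 0.34 (adjusted p = 0.780). At 12 hrs, untreated wells had 6.96, 8.07, 6.61 and 5.85 CPM and IFN-γ wells 2.43, 8.36, 5.4 and 4.16 CPM, from 2 to 9 counts, and the gene was not tested there. Without a filter on low counts, its log2 fold change for IFN-γ at 12 hrs was -0.44 (SE 0.45, adjusted p = 0.714).

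For Pdcd1lg2, all 4 untreated wells at 12 hrs were below all 4 at 4 hrs, and the fitted log2 difference was -0.83 (SE 0.36, interval -1.55 to -0.11), which did not pass the test (adjusted p = 0.190 in edgeR's test over 32 wells). Among untreated cells 0 of 7 members were called between the times by edgeR, against 4.9% of 9332 genes, and DESeq2 called 0. An unadjusted p under 0.05 was found for 1 of the 7 and for 1637 of all genes. Averaged over the 4 treatments, a contrast added after seeing the data, Pdcd1lg2 fell by 1.09 on the log2 scale from 4 hrs to 12 hrs (SE 0.20, adjusted p = 7.59e-06), and Cd47 fell by 0.23 (SE 0.05, adjusted p = 0.000146). These were 2 of 7 members against 26.6% of all genes tested, so that their share was near the background. Activin-A wells had 15.8, 13.8, 12.3 and 12.7 CPM of Pdcd1lg2 at 4 hrs and 6.43, 5.80, 2.07 and 7.43 CPM at 12 hrs. Wells with both factors had 9.49, 7.69, 17.1 and 9.92 CPM at 4 hrs and 6.78, 2.25, 0 and 9.32 CPM at 12 hrs. The wells of the 2 times did not overlap in untreated and Activin-A groups and overlapped in both groups given IFN-γ.

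Cd47 (ENSMUSG00000055447) rose with IFN-γ by a smaller factor than Cd274, from a level already far above the floor. Untreated wells had 159, 189.5, 151 and 138 CPM at 4 hrs, and IFN-γ wells 299.99, 252, 226 and 266 CPM. At 12 hrs the values were 170.1, 143, 125 and 160.2 CPM without and 212, 239, 218 and 244 CPM with IFN-γ. The groups did not overlap at either time. The rise was 1.65-fold at 4 hrs (95% interval 1.44 to 1.89, log2 fold change 0.72, SE 0.10, adjusted p = 4.84e-08) and 1.52-fold at 12 hrs (1.34 to 1.72, log2 fold change 0.60, SE 0.09, adjusted p = 4.48e-08). The effects at the 2 times differed by -0.10 on the log2 scale, with an interval from -0.38 to 0.17 (adjusted p = 0.933 in edgeR's test).

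**Figure D2:**
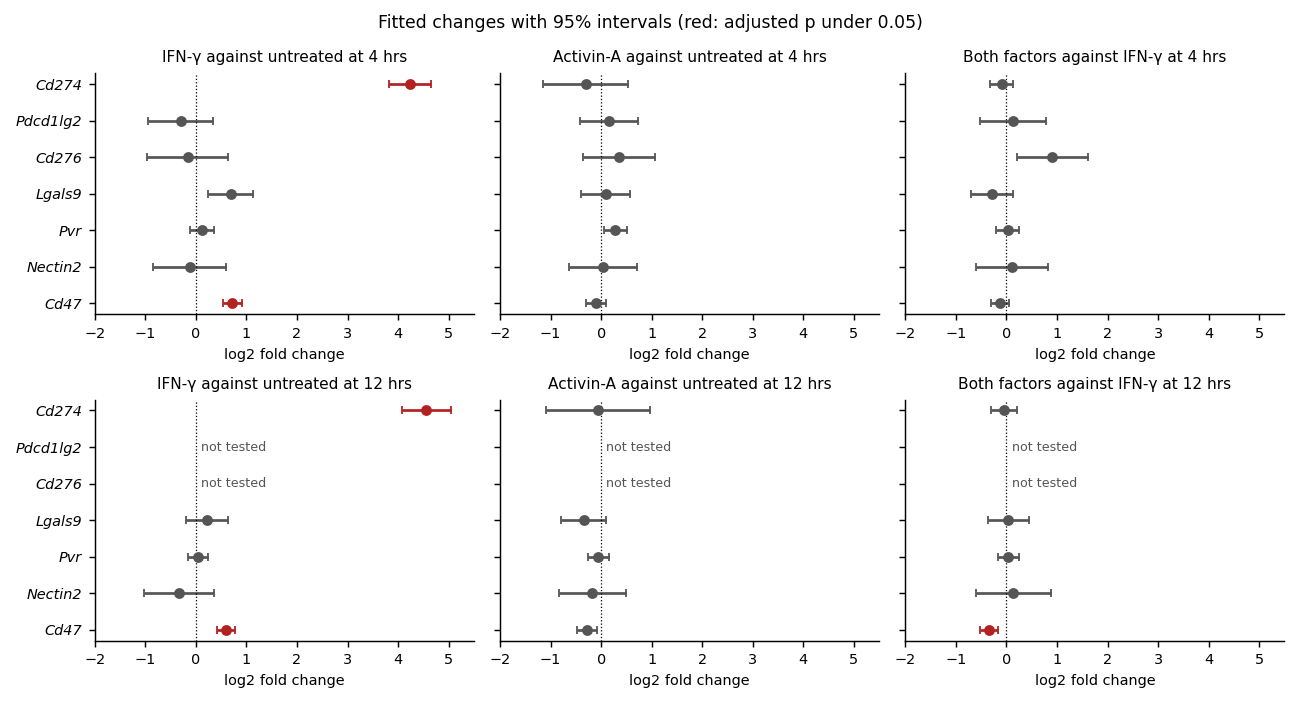
Fitted log2 fold changes of the 7 listed members with 95% intervals for IFN-γ against untreated, Activin-A against untreated and both factors against IFN-γ, at 4 hrs (top) and 12 hrs (bottom), with adjusted p under 0.05 in red. Red points are Cd274 and Cd47 for IFN-γ at both times and Cd47 for both factors against IFN-γ at 12 hrs, and Pdcd1lg2 and Cd276 were not tested at 12 hrs.

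Cd47 was also the 1 member called between both factors and IFN-γ, at 12 hrs and by edgeR but not by DESeq2. At 12 hrs, wells with both factors had 169, 178, 166 and 213 CPM, a mean of 182 ± 21.7 compared to 229 ± 15.7 for IFN-γ alone. Replicate 4 of the wells with both factors lay just above the lowest IFN-γ well, and the other 3 were below all 4 IFN-γ wells. The level was 1.27-fold lower (log2 fold change -0.34, SE 0.09, 95% interval -0.52 to -0.16, adjusted p = 0.0298 in edgeR's quasi-likelihood test). This was 1 of 5 members tested, against 1.03% of 8971 genes (92 genes, 41 higher and 51 lower). All 4 wells with both factors exceeded the 4 Activin-A wells of that time, whereas the highest untreated well, at 170.1 CPM, lay among them.

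The call for Cd47 depended on the settings while its direction did not. DESeq2's Wald test gave an adjusted p of 0.127, and a fit over all 32 wells gave 0.0857. DESeq2 gave an adjusted p for Cd47 and Pvr only and called neither. Cd274, Lgals9 and Nectin2 had no adjusted p there, so that it could not call them. With 1 of the 8 wells left out in turn, the adjusted p ranged from 0.00727 to 0.176 and the log2 fold change from -0.42 to -0.30. The call was lost without IFN-γ replicate 2 (adjusted p = 0.144) or 4 (0.169) and without replicate 1 (0.126), 2 (0.0755) or 3 (0.176) of the wells with both factors.

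**Figure D3:**
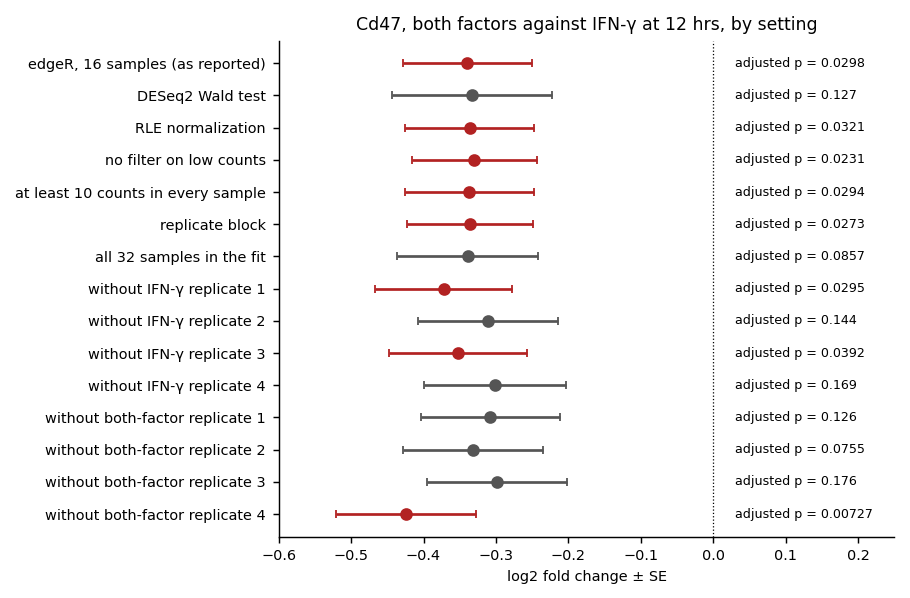
Log2 fold change ± SE of Cd47 for both factors against IFN-γ at 12 hrs, with 1 line per setting and the adjusted p at the right (red where under 0.05). All estimates lie between -0.42 and -0.30, and the adjusted p runs from 0.00727 to 0.176.

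Activin-A alone was associated with a similar shift of Cd47 at 12 hrs that did not pass the test. The wells had 137, 139, 109.6 and 107 CPM, with a mean of 123 ± 17.3 compared to 149.8 ± 19.6 in untreated wells, and the groups overlapped. The log2 fold change was -0.28 (SE 0.10, 95% interval -0.48 to -0.08, adjusted p = 0.140 in edgeR's test). The interaction, the effect of Activin-A with IFN-γ minus its effect without, was -0.06 with an interval from -0.33 to 0.21 (adjusted p = 0.974). Averaged over cells with and without IFN-γ, a contrast added after seeing the data, Cd47 fell by 0.31 with Activin-A at 12 hrs (SE 0.07, adjusted p = 0.000963). This was 1 of 5 members against 3.88% of genes.

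At 4 hrs no difference of Cd47 with Activin-A passed the test, and the effect of Activin-A was not tested between the times. Activin-A wells had 152, 112, 174 and 144 CPM, and wells with both factors 239, 231, 241 and 248 CPM. Each group lay within or across the range of its comparison group, and the log2 fold changes were -0.10 (interval -0.31 to 0.10) for Activin-A alone and -0.13 (-0.31 to 0.05) for both factors against IFN-γ. Ordered by mean, Cd47 ran from IFN-γ at 4 hrs (261 CPM) through both factors at 4 hrs (239.7), IFN-γ at 12 hrs (229), both factors at 12 hrs (182), untreated at 4 hrs (159.5), untreated at 12 hrs (149.8) and Activin-A at 4 hrs (145) to Activin-A at 12 hrs (123). The wells of each pair of neighbors in this order overlapped.

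Lgals9 (ENSMUSG00000001123) was higher in IFN-γ wells at 4 hrs without passing the test. Untreated wells had 24.6, 16.4, 17.6 and 22.0 CPM and IFN-γ wells 50.2, 25.3, 27.9 and 29.1 CPM. The groups did not overlap, but the lowest IFN-γ well was only just above the highest untreated well, and the first IFN-γ well was far above the other 3. The log2 fold change was 0.69 (SE 0.23, 95% interval 0.23 to 1.14, adjusted p = 0.0678 in edgeR's test). Without that first well it was 0.44 (adjusted p = 0.456), and without IFN-γ replicate 2 it was 0.81 (adjusted p = 0.0324), which was the highest and the lowest adjusted p of all settings. Averaged over cells with and without Activin-A, a contrast added after seeing the data, Lgals9 rose by 0.50 at 4 hrs (SE 0.16, adjusted p = 0.0340), so that 3 of 7 members were called against 9% of genes. That contrast kept the first IFN-γ well and was not fitted without it. Its share includes Cd274, which passed the filter through the wells given IFN-γ, and is no support for a response of the group.

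The other values of Lgals9 overlapped between the groups compared. At 12 hrs untreated wells had 24.0, 35.0, 14.3 and 31.6 CPM and IFN-γ wells 25.5, 32.4, 23.8 and 39.1 CPM (log2 fold change 0.22, interval -0.19 to 0.64, adjusted p = 0.649). Wells with both factors had 24.2, 32.5, 27.6 and 21.7 CPM at 4 hrs and 30.5, 34.9, 29.9 and 31.5 CPM at 12 hrs. Activin-A alone gave 27.7, 21.4, 15.9 and 19.0 CPM at 4 hrs and 15.3, 27.1, 18.6 and 23.5 CPM at 12 hrs. None of the differences with Activin-A passed the test, and the log2 fold changes were 0.09 and -0.34 without IFN-γ and -0.29 and 0.04 with it, at 4 hrs and 12 hrs respectively. The highest Activin-A well at 4 hrs was replicate 1, the well that stood apart, and without it the value of 0.09 turned to -0.14 (adjusted p = 0.921 in edgeR's test).

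No change of the nectin family members Pvr and Nectin2 passed the test. Pvr (ENSMUSG00000040511) had group means from 107 to 127 CPM, with single wells between 100.4 and 154 CPM and 75 to 234 counts. Its log2 fold change with IFN-γ was 0.12 at 4 hrs (95% interval -0.11 to 0.36) and 0.04 at 12 hrs (-0.16 to 0.24), which leaves room for a rise of 1.28-fold and 1.18-fold at most. With both factors compared to IFN-γ it was 0.03 at 4 hrs (-0.20 to 0.25) and 0.04 at 12 hrs (-0.17 to 0.24). Activin-A wells at 4 hrs had 154, 115, 123 and 115 CPM compared to 101, 109, 103 and 115 CPM in untreated wells. The highest of these was replicate 1, the well that stood apart, and the log2 fold change of 0.28 (SE 0.11, adjusted p = 0.271 in edgeR's test) became 0.14 without it (adjusted p = 0.729).

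Nectin2 (ENSMUSG00000062300) had 4 to 18 counts per well and group means from 8.91 to 12.0 CPM. Untreated wells had 7.03, 10.6, 7.68 and 13.0 CPM at 4 hrs and 12.4, 10.8, 13.2 and 11.7 CPM at 12 hrs, and IFN-γ wells 9.80, 8.72, 10.3 and 6.86 CPM and 12.1, 15.7, 8.64 and 3.33 CPM. Within each time the groups overlapped. The log2 fold change with IFN-γ was -0.12 at 4 hrs (interval -0.84 to 0.59) and -0.33 at 12 hrs (-1.02 to 0.36), so that at this depth smaller changes were not detectable. Neither Activin-A alone nor both factors against IFN-γ moved it past the test (adjusted p from 0.913 to 0.983).

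Cd276 (ENSMUSG00000035914), the B7-H3 gene, was read from 3 to 18 counts per well. At 4 hrs, untreated wells had 8.79, 4.81, 8.78 and 5.99 CPM, Activin-A wells 7.26, 7.65, 10.6 and 10.9 CPM, IFN-γ wells 4.9, 6.10, 4.41 and 8.57 CPM and wells with both factors 8.43, 15.4, 11.4 and 11.7 CPM. Wells with both factors were above 3 of the 4 IFN-γ wells, and the log2 difference was 0.91 (SE 0.35, 95% interval 0.20 to 1.61), which did not pass the test (adjusted p = 0.319 in edgeR's test). IFN-γ against untreated gave -0.16 (interval -0.96 to 0.63). At 12 hrs the groups overlapped, with means from 6.53 to 7.12 CPM, and the gene was not tested.

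Comparisons with Activin-A thus gave a single call among the members, apart from the call of Cd47 at 12 hrs in the averaged contrast. Activin-A alone changed 0 of 7 members at 4 hrs and 0 of 5 at 12 hrs by edgeR, where 1 had an unadjusted p under 0.05 at each time (Pvr and Cd47). DESeq2 called 0 as well, but gave no adjusted p for Nectin2, 1 of these 5, at 12 hrs. Over all genes, 1.64% were called at 4 hrs and 2.41% at 12 hrs. An unadjusted p under 0.05 was found for 1028 of 9137 genes at 4 hrs and 1017 of 8971 at 12 hrs. With both factors against IFN-γ at 4 hrs, 0 of 7 members were called by edgeR and 0 by DESeq2, against 0.81% of genes called by edgeR. An unadjusted p under 0.05 was found for 1 of the 7 (Cd276) and for 850 of 9137 genes. The interaction of the factors was called by edgeR for 0 of 7 members at 4 hrs and 0 of 5 at 12 hrs. The shares over all genes were 0% and 0.0111%. DESeq2 called 0 members, and 0 had an unadjusted p under 0.05, compared to 505 and 612 of all genes. The IFN-γ effect differed between 12 hrs and 4 hrs for 0 of 7 members by edgeR, against 0.579% of genes, with 0 calls by DESeq2. An unadjusted p under 0.05 was found for 0 of the 7 and for 689 of 9332 genes. Both factors against IFN-γ shares its IFN-γ wells with IFN-γ against untreated.

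Genes whose pattern over the 32 wells was most like that of a member were named where the highest Pearson r of log2 CPM was at least 0.8, which held for Cd274 and Cd47. For Cd274 these included Iigp1, a GTPase of the IFN-inducible family (r = 0.987, Spearman's rho = 0.83), and Irgm1, another such GTPase (0.984 and 0.85). For Cd47 they were Cdk6, a cyclin-dependent kinase of the G1 phase (0.861 and 0.86), Socs1, an inhibitor of JAK signaling (0.857 and 0.82), and Iigp1 (0.854 and 0.87). These wells share a plate format, a pooled library and the IFN-γ treatment, and for Cd274 they form separate clouds with and without IFN-γ, so that r follows this split. The highest r of the other members was 0.60 to 0.76.

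**Figure D4:**
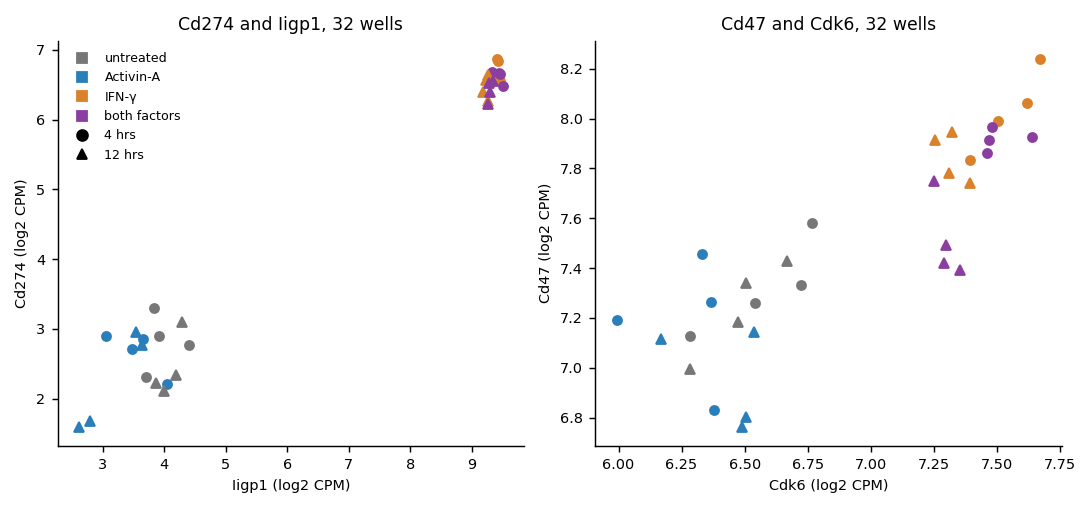
Log2 CPM of Cd274 against Iigp1 (left) and of Cd47 against Cdk6 (right) in the 32 wells, with treatments by color and times by symbol. Cd274 and Iigp1 form a low and a high cloud (r = 0.987), and Cd47 and Cdk6 vary more evenly (r = 0.861).

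Most genes listed for the route from IFN-γ to PD-L1 rose with IFN-γ. This list was chosen with earlier results of these data known, so that its shares and medians are a description and no independent support. Of 11 genes from receptor to inhibitor, all tested, 7 rose and 1 fell at 4 hrs, and 7 rose and 0 fell at 12 hrs, where 5.06% and 9.25% of all genes tested were called, with a median log2 fold change of 0.86 and 0.79 compared to -0.01 over all genes at either time. At 12 hrs the largest changes among the 11 were those of Irf1 (45.2 ± 6.63 CPM untreated, 702 ± 26.6 with IFN-γ, log2 fold change 3.96, SE 0.09, adjusted p = 4.49e-64), Socs1 (31.9 ± 2.83 and 150.1 ± 19.5, 2.22, SE 0.14, adjusted p = 8.93e-28) and Stat2 (22.8 ± 5.63 and 100.4 ± 15.6, 2.14, SE 0.16, adjusted p = 2.23e-22). Irf9, Stat3, Irf2 and Jak2 rose as well, by 0.67 to 1.97. DESeq2 called 6 of the 11 at each time, without Jak2 (adjusted p = 0.0784 at 4 hrs and 0.101 at 12 hrs). The gene that fell at 4 hrs was Ifngr2, a receptor chain, at -0.42 (SE 0.11, adjusted p = 0.0117, and 0.0521 with DESeq2), named after its value was seen. With both factors against IFN-γ, edgeR called 0 of the 11 at either time, with 0 unadjusted p under 0.05. DESeq2 called 0 as well, though at 12 hrs it gave no adjusted p for some genes, Cd274 among them. Over all genes edgeR called 0.81% at 4 hrs and 1.03% at 12 hrs, so that 0 of 11 was near the background. An unadjusted p under 0.05 was found for 850 of 9137 genes at 4 hrs and 921 of 8971 at 12 hrs. Irf1 was at 709 ± 37.6 CPM with both factors at 12 hrs.

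Of 18 other inhibitory ligands and enzymes, 15 were listed and 8 tested at each time. With IFN-γ at 12 hrs 2 of 8 rose, against 9.25% of all genes called, H2-T23 (the mouse Qa-1 gene, whose product is read by NKG2A), from 14.6 ± 2.95 to 345 ± 4.6 CPM (log2 fold change 4.57, SE 0.13, adjusted p = 5.95e-56), and Clec2d, a ligand of an inhibitory NK receptor, from 4.86 ± 2.25 to 21.6 ± 2.53 CPM (2.07, SE 0.33, adjusted p = 2.60e-07). Clec2d passed the filter on low counts through the wells given IFN-γ at both times, since untreated wells had 2 to 5 counts at 4 hrs and 3 to 10 at 12 hrs, so that it could enter only where it was high, and the shares of this list support nothing about it as a group. The list's median log2 fold change was -0.13. At 4 hrs, against 5.06% of all genes called, the same 2 rose, by 2.69 and 2.42, and 2 fell, Nectin3 by 0.40 (adjusted p = 0.0145) and Tgfb1 by 0.55 (adjusted p = 0.0338). DESeq2 called neither of these (0.0521 and 0.154), and both were named after their values were seen. Nectin3, a further nectin family member, was also higher with both factors than with IFN-γ at 4 hrs (0.62, SE 0.11, adjusted p = 0.000153), which was 1 of 8 against 0.81% of all genes.

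With both factors against IFN-γ at 12 hrs, 2 of these 8 genes were lower, besides Cd47 among the members, against 1.03% of all genes called. H2-T23 was at 279 ± 21.4 CPM (log2 fold change -0.31, SE 0.07, adjusted p = 0.0106, and 0.0674 with DESeq2), still far above untreated cells. Lgals3, which encodes galectin-3, was at 1221 ± 87.1 CPM compared to 1517 ± 42.9 with IFN-γ (-0.31, SE 0.05, adjusted p = 2.56e-05). Lgals3 was also lower with Activin-A alone, by a log2 fold change of -0.25 at 4 hrs (adjusted p = 0.00910, and -0.21 with adjusted p = 0.0171 without replicate 1 of Activin-A) and -0.48 at 12 hrs (adjusted p = 1.31e-11).

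**Figure D5:**
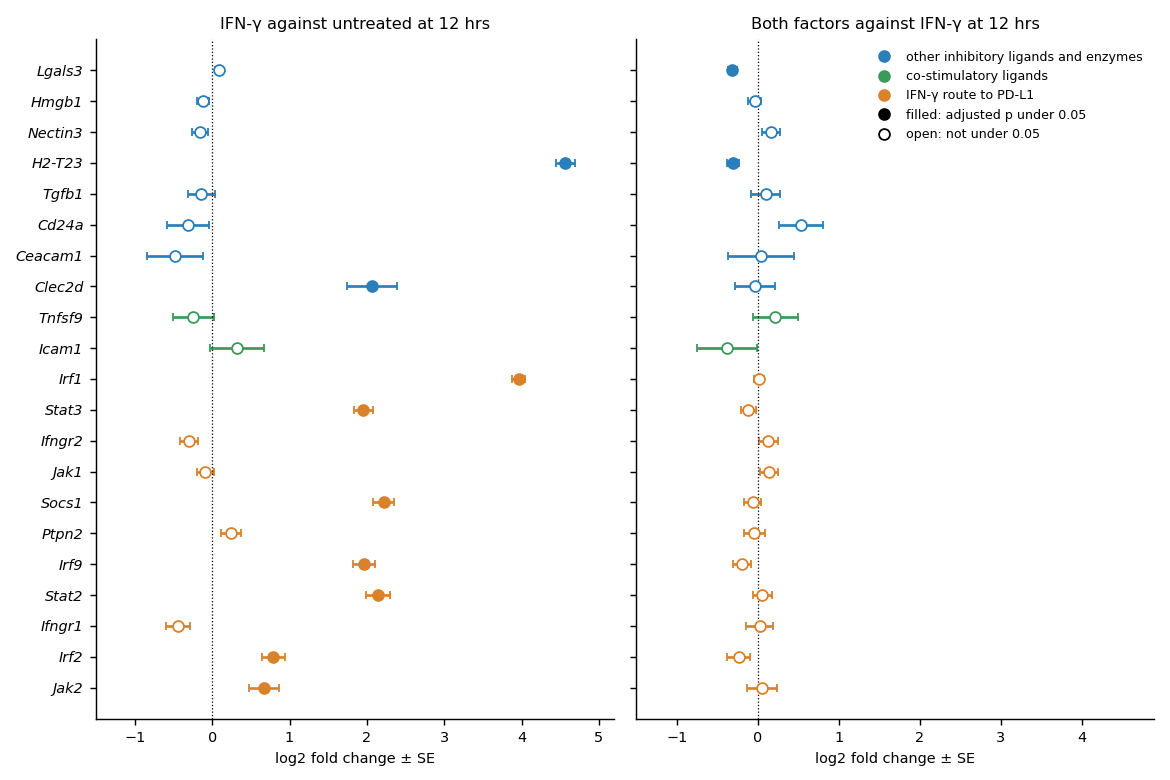
Log2 fold change ± SE at 12 hrs of the tested genes among other inhibitory ligands and enzymes, co-stimulatory ligands and the IFN-γ route to PD-L1, for IFN-γ against untreated (left) and both factors against IFN-γ (right), with filled points for an adjusted p under 0.05. IFN-γ raised 7 genes of the route together with H2-T23 and Clec2d, and with both factors only Lgals3 and H2-T23 among the plotted genes differed from IFN-γ.

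Co-stimulatory ligands were mostly too low to test. Of 11 genes, 7 were listed and 2 tested, the T cell ligands Tnfsf9 (4-1BBL) and Icam1. In comparisons between treatments at 1 time edgeR and DESeq2 called 0, where edgeR called 0% to 9.25% of all genes. An unadjusted p under 0.05 was found only at 4 hrs, for 1 with IFN-γ, for both with Activin-A and for both in the interaction. Without replicate 1 of Activin-A it was 1 with Activin-A. Of all 9137 genes, 1217 with IFN-γ, 1028 with Activin-A and 505 in the interaction had such a p. Among 9 genes known to handle PD-L1 or CD47 protein after translation, such as Cmtm6, Spop and Qpctl, all were tested and 1 changed with IFN-γ at 4 hrs, against 5.06% of all genes, Spop, an adaptor of a ubiquitin ligase, at 0.38 (SE 0.09, adjusted p = 0.00290), named after its value was seen. At 12 hrs 0 of the 9 were called with IFN-γ by either tool, and 0 in comparisons with Activin-A at either time. Over all genes edgeR called 9.25% with IFN-γ at 12 hrs and 0% to 2.41% in comparisons with Activin-A. At 12 hrs an unadjusted p under 0.05 was found for 1 of the 9 with IFN-γ, 1 with both factors against IFN-γ and 2 in the interaction. The same held for 1672, 921 and 612 of 8971 genes, respectively. Of 6 known target genes of Activin-A, all 6 rose with Activin-A alone at 4 hrs, with and without replicate 1, and 4 of 6 at 12 hrs, against 1.64% and 2.41% of all genes called. The list was chosen with earlier results of these data known, so that it is no independent check of the treatment. In the interaction at 12 hrs 0 of the 6 were called by edgeR or DESeq2, against 0.0111% of all genes. An unadjusted p under 0.05 was found there for 3 of the 6 and for 612 of 8971 genes. In wells with both factors against IFN-γ at 12 hrs 3 of the 6 were called, against 1.03% of all genes. Those called were higher, Ccn2 (405 ± 25.9 compared to 143 ± 8.46 CPM, log2 fold change 1.5), Pmepa1 (0.93) and Thbs1 (0.78), with adjusted p from 0.00114 to 1.31e-29.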

How the data were processed

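The authors deposited raw counts per gene for 32 wells, as whole numbers without normalization. The submitters' processing notes name STAR 2.7.10b, featureCounts, DESeq2 1.36.0 and GRCm39 (mm39). The annotation release, strand setting and use of molecular identifiers are not given in the sources used here, so that any duplicate or ambiguous reads stay as the authors counted them. Totals were 654539 to 1455074 counts per well. Symbols were taken from a table of gene names (12437 of 12451 genes matched). Wells were grouped as labelled. Genes were filtered with filterByExpr, normalized by TMM and tested with edgeR 4.0.16 (quasi-likelihood test, R 4.3.3) within a time (16 wells), or over 32 wells for contrasts between times, and adjusted by Benjamini-Hochberg at 0.05. The fold change of a level is a fitted log2 value, and a prior count of 2 was added for log2 CPM. Tables were read and plotted with Python 3.11.15.

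The members, lists and motifs were chosen with earlier results of these data known. Genes were named by a rule: the 8 members; for members whose best Pearson r was at least 0.8, the 3 most similar genes; and from each list the called genes with the 3 largest changes for IFN-γ, and for both factors against IFN-γ, at 12 hrs. A gene that these rules would add is not reported here. Alternatives were the DESeq2 1.42.0 Wald test, RLE normalization, no filter, at least 10 counts in every sample, a replicate block, all 32 wells in a fit and each well left out, and contrasts averaged over the other factor or over treatments were added after seeing the data. Tested on simulated data with 100 genes changed 2-fold and 100 changed 4-fold, edgeR recovered 99 and 100 for IFN-γ at 4 hrs (9137 genes, 11 false calls) and 96 and 100 at 12 hrs (8971 genes, 10 false calls). The changed genes were drawn only from genes with higher mean levels than Pdcd1lg2, Cd276 and Nectin2 (8.72, 7.67 and 10.1 CPM). Their simulated spread followed the trend over genes. Recovery at the level of these 3 members, or of Cd274 without IFN-γ, was therefore not tested.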

Additional observations from a re-analysis of the deposited data

Results flagged for a closer look

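In 56 groups of 4 wells, 1 for each listed member, treatment and time, 3 had a well far from the other 3, and chance gives about 1 in 20. Cd274 was at 87.5 CPM in replicate 4 of the wells with both factors at 4 hrs, while the others had 99.1 to 101 CPM. Cd276 was at 3.51 CPM, from 3 counts, in replicate 4 of the untreated wells at 12 hrs, while the others had 7.17 to 7.73 CPM. Lgals9 was at 50.2 CPM, from 41 counts, in replicate 1 of the IFN-γ wells at 4 hrs, while the others had 25.3 to 29.1 CPM, and without this well its log2 fold change with IFN-γ was 0.44 in place of 0.69.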

How the results depend on the processing

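For 62 results of single members, 993 alternative fits were made, of which 980 stayed on the same side of the threshold, 7 lost a call and 6 gained one, and 0 calls changed direction. The cause was not tested except where stated. Requiring at least 10 counts in every sample left 1 member called with IFN-γ at 4 hrs and 1 at 12 hrs in place of 2, since Cd274 no longer entered. Of the members, 0 were called for both factors against IFN-γ at 12 hrs with DESeq2 and with all 32 samples, and 0 to 1 with single wells left out. DESeq2 gave an adjusted p there for Cd47 and Pvr only. Contrasts averaged over the other factor or over treatments, which use more wells, called 1 member for Activin-A at 12 hrs and 2 between the times.

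Over all genes, the averaged contrasts called 822 and 1338 genes for IFN-γ, 331 and 348 for Activin-A (4 hrs and 12 hrs) and 2485 between the times. DESeq2 called 84 and 136 genes for Activin-A, 44 and 61 for both factors against IFN-γ, 0 for the interaction at 12 hrs and 284 between the times in untreated cells. The interaction gave 1 gene at 4 hrs and 8 at 12 hrs without a filter, and 1 at 4 hrs with all 32 samples. Leaving out single wells gave 47 to 72 genes for both factors against IFN-γ at 4 hrs, 0 to 1 and 0 to 6 for the interaction at 4 hrs and 12 hrs, 302 to 374 between the times in untreated cells and 35 to 54 for the difference of the IFN-γ effect between the times. The lowest counts came without IFN-γ replicate 2 or replicate 4 of both factors (47), untreated replicate 1 at 12 hrs (302) and untreated replicate 4 at 4 hrs (35).

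Replicate numbers did not pair the wells: deviations of same-numbered wells correlated by -0.00023 on average over 112 pairs. With a replicate block, Lgals9 passed the test for IFN-γ at 4 hrs (log2 fold change 0.70, adjusted p = 0.0467), and no other member call changed. Depth limited Cd276, Nectin2, Pdcd1lg2 and Cd274 without IFN-γ, which had at most 24 counts per well and the widest intervals.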
